A study of Mus musculus with 2 samples.

Results

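This account covers the 2 arms of the mouse miR-574 hairpin, miR-574-5p and miR-574-3p, in vesicles released by 3T3-L1 adipocytes. The members, listed on the array as mmu-miR-574-5p and mmu-miR-574-3p, were taken by name, as every non-control spot assigned to either arm, and they are 2 of 567 mouse miRNA entries. They were chosen by their processed intensities and flags on these same 2 arrays, which were known when they were picked, so their values are a description, without a test. miR-574-5p was bright on both arrays and differed by less than 2-fold between them. miR-574-3p was well above background on 1 array only, through 1 of its 4 probes.

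A microRNA (miRNA) is a short RNA that guides repression of messenger RNAs, chiefly through its seed, the bases at positions 2 to 8 of its 5′ end. It is cut from a hairpin whose arms each yield a mature strand, named 5p and 3p, and the strands often accumulate unequally because the loading of Argonaute proteins tends to favour 1 of them. miR-574-5p is known for its run of alternating U and G, and as a binding partner of the RNA-binding protein CUGBP1, while miR-574-3p has been studied for its action on the nuclear receptor RXRA. Vesicles shed into medium carry miRNAs of the releasing cell, and the strand found in them need not match the strand that is abundant inside the cell.

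The samples were total RNA of microvesicles from 3T3-L1, a mouse preadipocyte line that becomes lipid-laden after hormonal induction. All cells received insulin at 10 µg/ml, dexamethasone at 0.25 µM and 3-isobutyl-1-methylxanthine at 0.5 mM in high-glucose DMEM with 10% fetal calf serum. Medium was conditioned for 48 h, over days 2-4 (early window) or days 8-10 (late window), and vesicles were spun down by ultracentrifugation. Each window had 1 array, so no difference here has a replicate check or a p-value, errors are those between spots of an array, and preparation, array and window cannot be told apart. The labels do not say how many cultures were pooled, and no value tells serum RNA from cell RNA. All 9 adipocyte miRNAs of the marker list were well above background on both arrays, as were 3 of 6 blood and serum miRNAs. The same held for 145 of all 567 entries. The lists were drawn up with earlier results of these arrays known, so these counts are no test of origin. On the scaled log2 values defined below, the signal of miR-451 was 2.69 at day 2-4 and 2.73 at day 8-10, and that of miR-574-5p 1.07 and 1.35. Signals were lower for miR-223 (-3.02 and -3.23) and miR-486 (-3.20 and -3.16), and miR-144 was detected at day 8-10 alone. Different probes bind differently, so these signals do not rank the miRNAs by amount. None of the 4 muscle, 1 liver or 3 neural miRNAs of the list was detected on either array. The part of serum in the signals of miR-574 was not tested. Of the 567 entries, 156 were detected at day 2-4 and 166 at day 8-10, and no spot was saturated.

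The sequences are printed because the arms differ so much in base composition, and because each probe reads only the 3′ part of its arm. In RefSeq (GRCm38.p6) the 78-base hairpin of Mir574 lies at chr5:64970318-64970395 on the plus strand, and it is shown with the 5p arm and then the 3p arm in capitals.
mir-574 hairpin: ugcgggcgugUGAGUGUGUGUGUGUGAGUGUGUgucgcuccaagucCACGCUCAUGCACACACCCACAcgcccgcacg
In the mature strands the capitals mark the seed.
miR-574-5p: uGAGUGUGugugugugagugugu
miR-574-3p: cACGCUCAugcacacacccaca

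The 5p strand, at chr5:64970328-64970350, has 23 bases, of which 91.3% are G or U. It holds 11 G, 10 U, 2 A and 0 C, with a longest unbroken run of alternating U and G of 13 bases. The 3p strand, at chr5:64970364-64970385, has 22 bases, of which 81.8% are A or C (11 C and 7 A). G plus C makes up 47.8% of the 5p strand and 59.1% of the 3p strand. A minimum free energy fold of the hairpin with RNAfold placed 20 base pairs between the mature strands, 3 of them G-U pairs. Neither seed occurred in another of the 1679 mature mouse names of the RefSeq table, so by this measure neither arm belongs to a seed family. The hairpin lies within the spans of 2 protein-coding genes in that annotation. It starts 243 bases after the first base of Fam114a1 and ends 547 bases before the last base of the span of Tlr6, which encodes a Toll-like receptor. The table gives no exons, so whether the hairpin is exonic or intronic is not stated here.

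The files give each probe a position on chromosome 5 in a genome build that the headers and labels do not name. The 2 probes of miR-574-5p cover 17 bases (65361589 to 65361573) and 18 bases (65361589 to 65361572). The 4 probes of miR-574-3p share their first position, 65361624, and cover 12, 13, 14 and 15 bases. The first positions of the arms lie 35 bases apart, as do the 3′ ends of the mature strands in RefSeq, and this distance was also equal in 43 of 45 other arm pairs that could be matched by name. Counted from the 3′ end on that basis, the stretches read by the longest and the shortest probe of each arm are shown in capitals.
miR-574-5p, 18-base probe: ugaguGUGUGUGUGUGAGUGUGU
miR-574-5p, 17-base probe: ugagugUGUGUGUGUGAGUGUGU
miR-574-3p, 15-base probe: cacgcucAUGCACACACCCACA
miR-574-3p, 12-base probe: cacgcucaugCACACACCCACA
On the 5p arm both probes read into the alternating run and take in only the last bases of the seed, and on the 3p arm the probes read the A- and C-rich end and at most the last seed base.

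All 20 spots of miR-574-5p were well above background on both arrays, and none was saturated or an outlier. With the 17-base probe the processed intensity, which is the spot signal after background subtraction in scanner units, ran from 137 over a median of 161 to 191 at day 2-4, and from 163 over 173 to 185 at day 8-10. With the 18-base probe it ran from 278 over 323 to 359 at day 2-4, and from 321 over 340 to 370 at day 8-10. In these unscaled units the spots of the 2 arrays therefore overlapped for either probe. After the scaling described below, those of the 17-base probe still overlapped and those of the 18-base probe did not. The raw signal stood 4.76 and 5.09 times above the local background for the 17-base probe, and 8.53 and 9.09 times for the 18-base probe, at day 2-4 and day 8-10 in that order. The means were 161 ± 17.2 (SD, n = 10 spots) and 174 ± 8.64 (SD, n = 10 spots) for the shorter probe. They were 322 ± 27.4 and 341 ± 15.0 for the longer probe (SD, n = 10 spots each). Spots thus varied more at day 2-4, with coefficients of variation of 10.7% and 8.53%, than at day 8-10, with 4.97% and 4.39%. Over the probes with at least 9 usable spots that were detected, the median coefficient of variation was 7.41% and 6.32%.

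**Figure D1:**
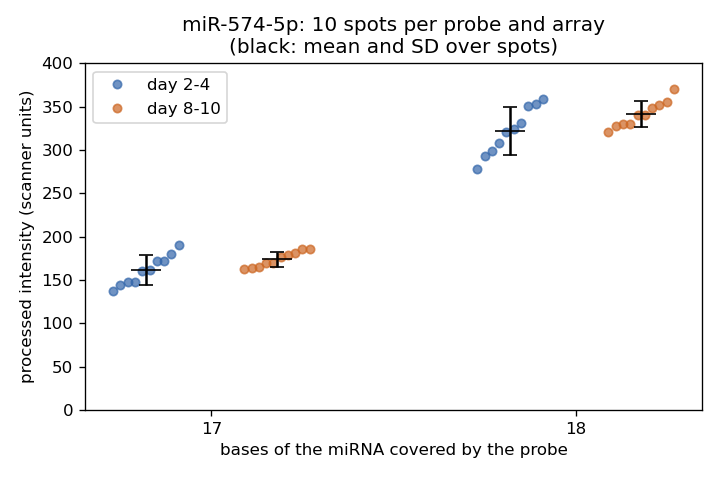
Processed intensity in scanner units of the 10 spots of each miR-574-5p probe, by the number of bases the probe covers, with day 2-4 in blue, day 8-10 in orange and black marks for the mean and SD over spots. In these unscaled units the spots of the 2 arrays overlap for both probes, around 161 and 174 for the 17-base probe and around 322 and 341 for the 18-base probe.

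On the scale used for the comparison, log2 of the intensity divided by each array's 75th percentile (taken over 279 probes seen on both), miR-574-5p stood at 1.07 at day 2-4 and 1.35 at day 8-10. The difference, day 8-10 minus day 2-4, was 0.29 (spot SE 0.035), or 1.22-fold. The separate probes gave log2 differences of 0.30 (spot SE 0.054, 17 bases) and 0.27 (spot SE 0.044, 18 bases). Their disagreement of 0.024 was small beside the median disagreement of 0.079 over the 82 miRNAs for which exactly 2 probes passed the detection rule at both times, and 14 of these had a smaller one. In such a sample, a change in the number of vesicles with this RNA and a change in its amount per vesicle cannot be told apart. Each array took 100 ng of RNA and was scaled to its own signals, so a change in the other RNAs cannot be told apart from these either.

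Most of this small difference lay in the scaling. Before scaling, the intensity of the 17-base probe was 1.08 times and that of the 18-base probe 1.06 times as high at day 8-10 as at day 2-4, and without any scaling the log2 difference was 0.10. With all miRNA probes entering the 75th percentile the sign turned, to -0.22. The median of the 145 miRNAs detected on both arrays shifted along with it, from 0.20 to -0.30. Relative to that median, miR-574-5p stood 0.082 higher, a distance that dividing an array by a constant cannot change. It stood 0.079 higher with normexp, a model-based background correction. Normexp was used with an offset of 50, which shrinks log2 differences of weak signals. With quantile normalization it stood 0.53 higher than the median.

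**Figure D2:**
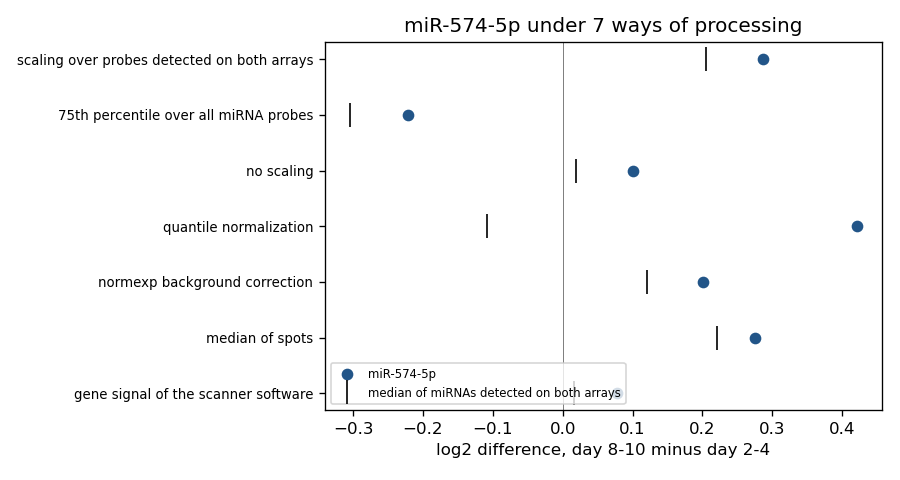
The log2 difference of miR-574-5p, day 8-10 minus day 2-4, under 7 ways of processing, with ticks for the median of the miRNAs detected on both arrays. Its values lie between -0.22 and 0.42, all to the right of the median and all under 2-fold. The distance to the median is the same by construction in the first 3 settings, which differ only in a constant per array.

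Among the 145 miRNAs detected on both arrays, miR-574-5p sat near the centre. Of the others, 67 had a higher and 77 a lower difference, the median was 0.20, and the quartiles were -0.22 and 0.73. Of these, 34 of 145 (23.4%) were counted as changed, meaning at least 2-fold and more than 2 spot SE apart, with 23 (15.9%) higher at day 8-10 and 11 (7.59%) lower. That balance depended on the processing, with 10 higher and 29 lower when all probes entered the percentile, 17 and 17 with quantile normalization, and 5 and 5 with normexp. miR-574-5p was in neither group. The 3 miRNAs with the nearest log2 difference over these 2 arrays were miR-20a (0.28, spot SE 0.037), a member of the miR-17-92 cluster known for promoting proliferation, miR-350 (0.29, spot SE 0.046), and miR-466h (0.30, spot SE 0.066), from a large repeat family. All lay within 0.0099 of miR-574-5p, less than their spot errors, so their order carries no information.

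**Figure D3:**
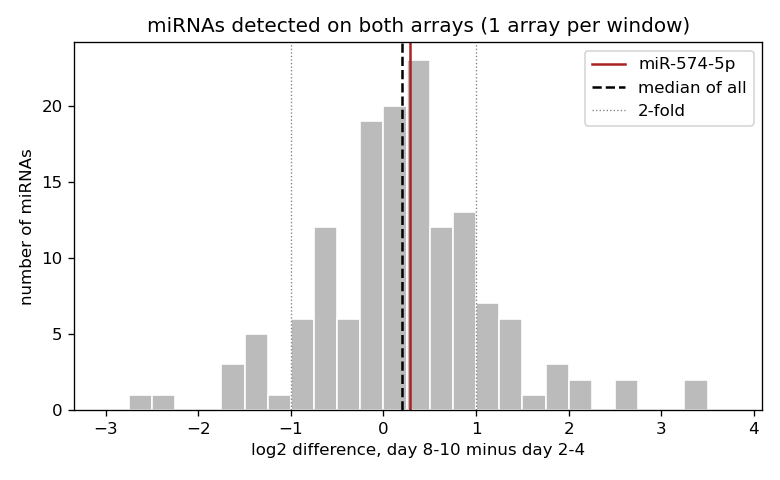
Histogram of the log2 difference, day 8-10 minus day 2-4, for the 145 miRNAs seen on both arrays, with the number of miRNAs on the vertical axis. miR-574-5p (red, 0.29) lies close to the median (dashed, 0.20) and inside the dotted 2-fold limits.

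For miR-574-3p, 5 of 20 spots were well above background at day 2-4 and 0 of 20 at day 8-10. All 5 belonged to the 15-base probe, whose spots read 5.39, 5.65, 6.69, 6.72 and 7.19 in scanner units at day 2-4, with a mean of 6.33 ± 0.768 (SD, n = 5 spots). At day 8-10 the same probe read 2.93, 3.02, 3.19, 3.31 and 4.38, with a mean of 3.37 ± 0.588 (SD, n = 5 spots). The spots of the 2 arrays did not overlap, and the unscaled difference, day 8-10 minus day 2-4, was -2.96 units (spot SE 0.433). No spot of this probe was an outlier.

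The day 8-10 signal of that probe was weak but not at 0. All 5 of its spots were positive and significant by the scanner software's own test on each array, and in all 13 of 20 spots of the arm were, at day 2-4 and at day 8-10 alike. The 99th percentile of the 672 negative control spots was 2.69 at day 2-4 and 2.84 at day 8-10, so every spot of the 15-base probe exceeded it. The highest negative control spot read 9.87 and 11.2, above each of these spots. The lowest mean of any probe counted as detected was 4.86 at day 2-4 and 5.55 at day 8-10. With 6.33, miR-574-3p lay just above that limit at day 2-4, and with 3.37 below it at day 8-10.

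Because miR-574-3p was not well above background at day 8-10, only a bound could be taken. The bound compares its scaled day 2-4 signal with the higher of the day 8-10 detection limit and its own signal there. These were 0.0581 and 0.0583 of the arrays' 75th percentiles, so the bound did not pass 1 and no fold is given. The gene signal that the scanner software sums over the probes of an entry was 3.45 with a software error of 0.730 at day 2-4, where the software called the entry detected. It was 2.39 with an error of 0.734 at day 8-10, where it did not. The same sum for miR-574-5p was 320 with an error of 23.9 and 343 with an error of 25.6.

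Signals of miR-574-3p went with the length of the probe on both arrays. At day 2-4 the means were -0.346 ± 1.18, 1.67 ± 0.945 and 2.76 ± 1.10 for the 12-, 13- and 14-base probes (SD, n = 5 spots each), below the 6.33 of the 15-base probe. At day 8-10 they were -0.0360 ± 0.874, 1.74 ± 1.28 and 2.11 ± 0.783 (SD, n = 5 spots each), below 3.37. For these 3 shorter probes the spots of the arrays overlapped, and the difference between the arrays was seen with the 15-base probe alone. Of the 36 entries with 4 probes of different length and a detected probe at day 2-4, miR-574-3p among them, 17 (47.2%) had signals rising with every added base, 22 (61.1%) had the longest probe brightest, and 12 had a single detected probe. Signals of different probes depend on how each binds, so neither these values nor the gap between the arms is a ratio of amounts.

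**Figure D4:**
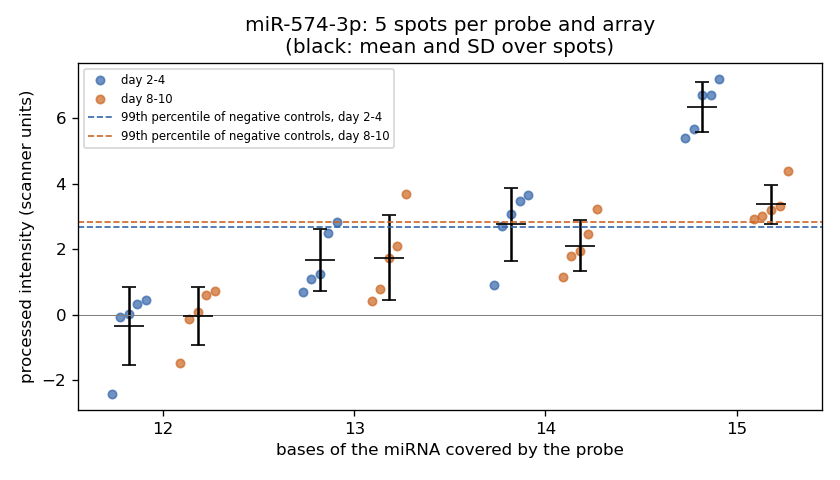
Processed intensity in scanner units of the 5 spots of each miR-574-3p probe, by the number of bases covered, with day 2-4 in blue, day 8-10 in orange, black marks for the mean and SD over spots, and dashed lines at the 99th percentile of negative control spots (2.69 and 2.84). Signals go up with probe length on both arrays, and the 15-base probe separates the arrays, at 6.33 against 3.37.

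Detection of both arms was uncommon among the hairpins of the array. Of 164 hairpins with both arms on the array, 8 (4.88%) had both arms detected at day 2-4, miR-574 among them, 61 (37.2%) had 1 arm and 95 (57.9%) had neither. At day 8-10 miR-574 was among the 59 (36.0%) with 1 arm detected. Of the 61 hairpins named by 5p and 3p, 12 had only the 5p arm detected at day 2-4, 6 only the 3p arm and 4 both. At day 8-10 these counts were 13, 6 and 2, with miR-574 now counted under 5p alone. It was 1 of 6 hairpins with an arm that crossed the detection limit while both arms were seen on at least 1 array. The others, named after their values were seen, were let-7d, miR-193, miR-378, miR-450a and miR-99b. The arms let-7d* and miR-450a-5p were, like miR-574-3p, detected at day 2-4 alone, whereas miR-193*, miR-378* and miR-99b* were detected at day 8-10 alone.

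Only 5 hairpins had both arms detected on both arrays, which gave a measured difference for each arm. The gap between the arms had a median of 0.32 on the log2 scale, against a median of 0.80 over all ways of taking 2 of the 145 miRNAs. The smallest gaps were those of miR-877 (0.17), miR-140 (0.30) and miR-199b (0.32), and the largest were those of miR-324 (0.56) and miR-125a (1.05). In miR-125a, a hairpin of the lin-4 family, the 5p arm was at 0.35 and the 3p arm at -0.70. In all 5 the arm named 5p, or named without a star, had the higher difference, and in 3 of 5 the arms had the same sign. Which hairpins share a sign depends on the scaling, because a constant per array shifts both arms alike. The order of the arms did not hold for every hairpin with an arm that crossed the detection limit, where spots below the limit were set to it. Taken as 5p or unstarred arm minus the other, the gap was negative in miR-378 (-0.26), miR-450a (-0.33) and miR-99b (-0.67). It was positive in let-7d (0.062), as in miR-574, and in miR-193 (0.18). In miR-193 the starred arm stood at the limit at day 2-4, so the gap there may be smaller or negative. With normexp, whose offset shrinks differences of weak signals, the median gap of the 5 hairpins with both arms detected on both arrays was 0.073. The median of 0.80 has no normexp value to set beside it. For miR-574 no measured gap can be set beside those of these 5 hairpins, because the 3p arm has no measured difference. With its day 8-10 spots set to the detection limit, the 5p difference exceeded that of 3p by 0.28 (spot SE 0.087), a value that the limit itself fixes.

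**Figure D5:**
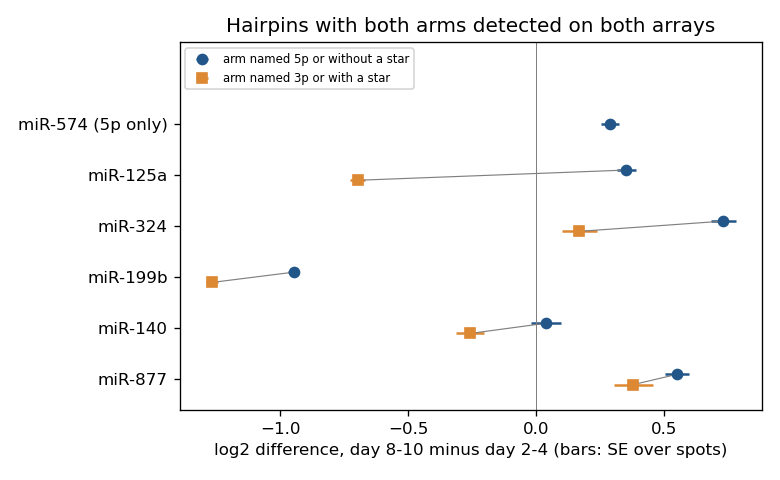
The log2 difference, day 8-10 minus day 2-4, of each arm of the 5 hairpins with both arms detected on both arrays, with bars for the SE over spots, and miR-574 with its 5p arm only. Arms lie 0.17 (miR-877) to 1.05 (miR-125a) apart, and miR-574-5p (0.29) lies next to miR-125a-5p (0.35).

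Entries with a sequence like that of miR-574-5p were looked for in the RefSeq mature sequences. The motif UGUGUGUG (as written, in the RNA strand) occurs in 7 of 1679 mature names, and UGUGUG, which every match of the longer motif also holds, in 28. Of the array's entries, 139 could be matched to a mature sequence by exact name, since many names have changed since the array was designed. Among these, miR-574-5p was the only match of UGUGUGUG (0.719%). UGUGUG was also found in miR-291a-3p, an embryonic miRNA that was detected on neither array. The repeat-derived miR-466, miR-467 and miR-669 entries largely stayed unmatched, so whether RNA of similar sequence adds to the signal of miR-574-5p was not tested.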

How the data were processed

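The members, lists and alternatives were chosen with earlier results of these arrays known. Per the file headers, the deposited intensity values come from 1-colour scans read with Agilent Feature Extraction 9.5.3.1, as spot signal minus a fitted spatial background, with no normalization between arrays. The deposited flags for well above background, saturation and outliers were used as given. The deposited series value table held the same intensity for 24986 of 24986 spots. Per the labels, 100 ng of RNA was labelled with Cy3. Spots marked as outliers by the software were not used. Detection of a probe required a share of spots well above background over 0.5. Spots were divided by the array's 75th percentile over probes detected on both arrays (108 and 95.2 scanner units), raised to the lowest detected probe where lower, log2 transformed and averaged per probe. Probes detected on at least 1 array were averaged to give a miRNA's value. Named miRNAs were the 2 arms, the 3 nearest in log2 difference to each arm with a measured difference, the arm pairs with the largest and smallest gaps, and detected UG-repeat entries. miR-291a-3p and the 5 other hairpins with an arm that crossed the detection limit fall outside this rule and were named after their values were seen. The same holds for the named blood and serum miRNAs. Alternatives used limma 3.58.1 (normexp, offset 50) in R 4.3.3, and the hairpin was folded with ViennaRNA 2.7.2. The calculation was tested on simulated arrays. The number of arrays limits the precision.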

Additional observations from a re-analysis of the deposited data

Results flagged for a closer look

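Control probes whose names begin with hur, which are not part of the miRNA comparison, gave a signal that differed between the arrays far more than miR-574-5p did. Over the 15 such probes detected on both arrays, the unscaled intensity was a median of 6.18 times as high at day 8-10 as at day 2-4, with a range of 3.84 to 10.3. The files do not say what RNA these probes bind, and they were not used for scaling.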

How the results depend on the processing

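With 1 array per window no array could be left out, and no paired analysis was possible. The log2 difference of miR-574-5p (0.29), and with it that of the UGUGUGUG list, of which it is the only member, moved to -0.22 with the 75th percentile over all probes, 0.10 without scaling and 0.42 with quantile normalization. It was 0.078 with the software's gene signal. For miR-574-3p the value with the detection limit as floor (0.0057) became -0.50 with the 75th percentile over all probes, -0.48 with quantile normalization and -0.55 with the gene signal. It was 0.38 with the 12-, 13- or 14-base probe alone, which is the ratio of the arrays' limits, since no such spot mean passed them. The gap between the arms (0.28) became 0.90 with quantile normalization, 0.63 with the gene signal and -0.092 with any of those 3 probes. It was 0.0017 with all probes of the entry and 0.13 with normexp. With all probes the 3p difference was 0.29, an average in which the 12-, 13- and 14-base probes give only the ratio of the limits. With no floor, an alternative added after seeing the data, the 3p difference was -0.73 and the gap 1.01, resting on a day 8-10 signal not well above background. With normexp 10 miRNAs passed 2-fold in place of 34, and the median gap of arm pairs was 0.073 in place of 0.32. The normexp offset of 50 shrinks log2 differences of weak signals. The split of higher and lower miRNAs was 23 and 11, against 10 and 29 with all probes. The gap between arms, and that of the arm pairs, cannot move with a constant per array, and no spot of either arm was an outlier, so those settings say nothing about stability.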
